A study of Mus musculus with 10 samples.

Results

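Immediate early genes are transcribed within minutes of neuronal firing, before any new protein has to be made, and they encode transcription factors, synaptic proteins and feedback regulators. Calcium entry and kinase cascades switch them on through promoter elements such as the cAMP response element (CRE), and in the hippocampus their mRNA levels are used as a record of recent activity during exploration and learning. The 36 genes described here were taken as a named set of such genes (Fos, Jun, Egr and Nr4a families, Npas4, Arc and others), out of 19938 genes represented on the arrays, and each of the 36 was read by 1 transcript cluster (a set of probes that summarises 1 transcript) with no other gene in its annotation. Bdnf and Nptx2 are in the set, although the study treats them as late response genes in the visual cortex.

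Their mRNA was measured in the hippocampus of 10 male mice aged 16 weeks, of which 5 were Ts65Dn mice and 5 were control littermates, each on its own Affymetrix Mouse Gene 1.0 ST array. Ts65Dn mice, a model of Down syndrome, carry a small extra chromosome with part of mouse chromosome 16 (Mmu16) and the centromeric end of mouse chromosome 17 (Mmu17), and their controls lack it. Both genotypes had the F1 hybrid B6C3B background, in which the C3B parent line carries a BALB/c allele of Pde6b, and each RNA came from the left and right hippocampus of 1 mouse together. The labels number the mice of each genotype 1 to 5 without saying what the numbers mark, so that mice are named below as Ts65Dn 1 to 5 and control 1 to 5. In whole tissue, a lower signal from fewer cells of a type cannot be told apart from less RNA per cell.

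Values are log2 signals after RMA, a procedure that corrects background, equalises the arrays and averages probes, so that a difference of 1 is a doubling. Array medians lay between 7.38 and 7.41, and no arrays held identical values. Hippocampal markers were present, with mean log2 signals per mouse of 9.18 to 9.62 in Ts65Dn mice and 9.24 to 9.53 in controls for 10 dentate granule cell genes, and of 9.97 to 10.12 in Ts65Dn mice and 10.04 to 10.29 in controls for 6 CA1 pyramidal cell genes. None of the 36 genes lies on Mmu16. The 2 on Mmu17, Dusp1 (GRCm38.p6, chr17:26505591-26508472) and Pim1 (chr17:29490785-29496111), lie outside the trisomic part, so all 36 genes were present in 2 copies in both genotypes.

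Promoter sequence from RefSeq (GRCm38.p6, 250 bases before to 50 bases after a listed transcription start) was matched for 29 of the 36 genes, in 45 windows. The core of the CRE, TGACG on either strand, was present in 27 of the 45 windows (60.0%) and in 20.8% of all 32851 windows. At least 1 window held it in 21 of the 29 genes and in 23.05% of all 27025 genes with windows. The GC content of the windows was 62.3% for the 36 genes and 52.7% for all. The palindromic CRE TGACGTCA, which contains the core on both strands, was found in Dusp1 and Btg2 among the 29 genes, and in 1.79% of all windows. The AP-1 site TGACTCA or TGAGTCA was found in Csrnp1 only (5.20% of all windows), the EGR site GCGTGGGCG in none of the 29 (0.612% of all windows), and the CArG box in Egr2 and Dusp5 (1.63% of all windows). These matches describe letters in a window and say nothing of binding in these mice. Not every gene with a wide range and several matches is shown. Left out are Egr2 (control range 1.15, up to 2 matches in a window) and Nr4a1 (control range 0.93, 4 matches). The stretches below are shown because their genes had either the widest range among mice or the smallest p, or were measured further by the study. Each stretch holds the core at least 2 times. They are written 5′ to 3′ on the gene's strand, with the core, or the palindrome where complete, in capitals (CGTCA is the core on the other strand), and they lie before the start of Btg2 (chr1:134079294-134079341, minus strand), Dusp1 (chr17:26508588-26508683, minus strand), Npas4 (chr19:4990116-4990170, minus strand), Egr4 (chr6:85513674-85513786, minus strand) and Fos (chr12:85473741-85473848, plus strand).
Btg2: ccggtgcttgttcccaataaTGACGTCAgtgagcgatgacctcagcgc
Dusp1: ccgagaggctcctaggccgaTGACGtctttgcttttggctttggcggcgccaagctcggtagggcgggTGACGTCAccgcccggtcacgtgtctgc
Npas4: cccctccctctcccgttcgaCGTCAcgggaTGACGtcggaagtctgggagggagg
Egr4: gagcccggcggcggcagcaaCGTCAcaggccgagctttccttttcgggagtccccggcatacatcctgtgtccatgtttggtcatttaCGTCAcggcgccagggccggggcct
Fos: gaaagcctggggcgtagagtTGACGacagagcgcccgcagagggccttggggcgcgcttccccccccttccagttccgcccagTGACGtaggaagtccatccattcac
Ptgs2, whose mean was higher in Ts65Dn mice, had 1 match to the core, which lay after its listed start. Nr4a3, also with a higher mean in Ts65Dn mice, had 4 matches, and Junb, with a lower one, had 1. Whether matches go with the direction of the difference was not tested.

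The first question was whether the genes as a set sat at another level in Ts65Dn hippocampi. Averaged over the 36 genes, the log2 signal was 8.33, 8.35, 8.39, 8.32 and 8.26 in Ts65Dn 1 to 5, and 8.59, 8.52, 8.46, 8.38 and 8.23 in control 1 to 5. The 5 Ts65Dn mice lay close together, whereas the controls were spread out, with 3 controls above every Ts65Dn mouse and control 5 below all of them. The mean was 8.33 ± 0.05 in Ts65Dn mice and 8.44 ± 0.14 in controls (SD, n = 5 each), a difference of -0.11. Of the 36 genes, 25 had a negative difference (52.4% of all genes did) and 11 a positive one, and the median was -0.09 against -0.0028 over all genes. The difference was under -0.2 in 10 genes, a size reached by 0.757% of all genes. The size rested on the controls at both ends: the difference of the means was -0.16 without control 5 and -0.07 without control 1, and the median was -0.11 and -0.03 in the same order.

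**Figure D1:**
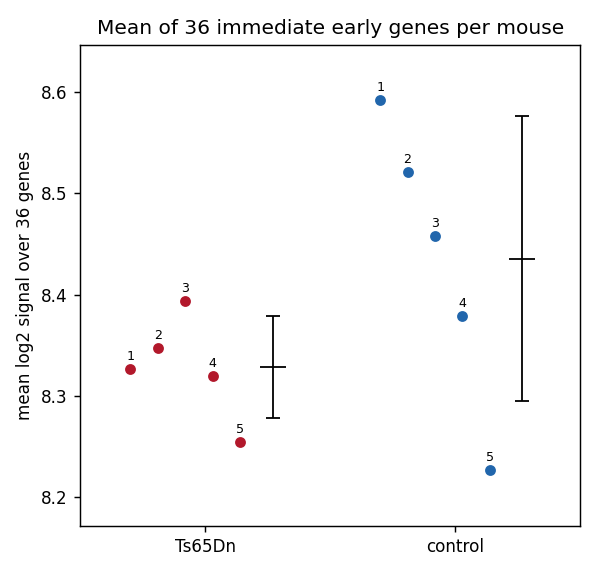
Mean log2 signal over the 36 immediate early genes (vertical axis) for each mouse, Ts65Dn left and control right. Points are mice with their replicate numbers, and the bar beside them is the mean with SD (n = 5). The 5 Ts65Dn values lie between 8.26 and 8.39, inside the range of the controls, 8.23 to 8.59.

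No single gene passed the test of genotype alone. At an adjusted p of 0.05 (limma, Benjamini-Hochberg over all named transcript clusters), 0 of the 36 genes were higher in Ts65Dn mice, as were 0.276% of all genes, and 0 were lower, as were 0.00502% of all genes. At an unadjusted p under 0.05, Ptgs2 was higher (1.76% of all genes were), and 6 genes were lower, namely Btg2, Egr4, Junb, Trib1, Rgs2 and Arc (1.56% of all genes were). The 6 became 14 without control 5 (1.95% of all genes) and 4 without control 1 (1.56%). In no gene were the genotypes fully apart, against 0.532% of all genes with every Ts65Dn mouse above every control and 0.346% with every Ts65Dn mouse below. Fold-change ranking over all pairs of a Ts65Dn and a control array, the kind of method the study used, called 1 gene higher, Ptgs2 (2.9% of all genes), and 14 lower (2.66%): Fos, Junb, Egr1, Egr2, Egr4, Nr4a1, Npas4, Arc, Dusp1, Dusp6, Rgs2, Trib1, Btg2 and Gadd45g. The cutoffs of this ranking mark the ends of its order in any data. In simulated arrays without any difference the ranking therefore made 1273 calls among 23410 transcript clusters. There limma made 0 after adjustment, and 5.13% had an unadjusted p under 0.05 in limma. The 1273 calls follow from the cutoffs, so they cannot tell whether the 14 lower calls are true or false.

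**Figure D2:**
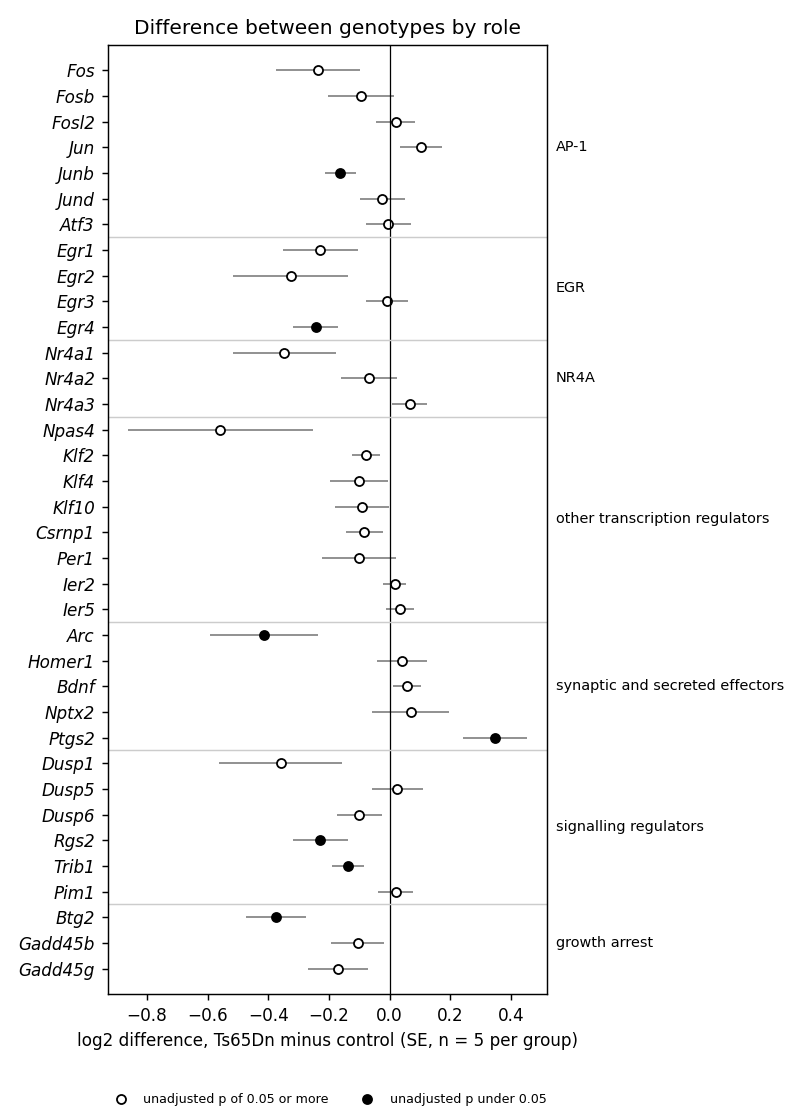
Log2 difference, Ts65Dn minus control, of each of the 36 genes (horizontal axis, with SE, n = 5 per genotype), grouped by role. Filled points have an unadjusted p under 0.05 in limma. The lowest value is that of Npas4 (-0.56) and the highest that of Ptgs2 (0.35), and no gene passed after adjustment.

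The Fos and Jun proteins pair to form AP-1, the transcription factor through which a burst of activity reaches later genes. Fos, its best-known inducible subunit, had log2 signals of 6.39, 6.67, 6.46, 6.40 and 6.34 in Ts65Dn 1 to 5, against 6.79, 7.16, 6.71, 6.48 and 6.28 in control 1 to 5. Controls 1 to 3 were above all Ts65Dn mice and control 5 was below them, with a difference of -0.24 ± 0.14 (log2, SE; adjusted p = 1.00, n = 5 per genotype). Fosb, whose splice form ΔFosB accumulates with repeated activity, had 7.41, 7.42, 7.67, 7.39 and 7.40 in Ts65Dn mice and 7.93, 7.62, 7.53, 7.43 and 7.25 in controls. Apart from Ts65Dn 3 the trisomic mice were nearly alike, and controls lay on either side of them (difference -0.10 ± 0.11, adjusted p = 1.00). Junb, a Jun family member that often restrains Jun, had 7.54, 7.49, 7.50, 7.42 and 7.56 in Ts65Dn mice and 7.66, 7.69, 7.74, 7.74 and 7.49 in controls. Control 5 alone fell among the Ts65Dn mice, the other 4 controls being above all of them. The Junb difference was -0.16 ± 0.05 (log2, SE), a fold of 0.894 with a 95% interval of 0.826 to 0.967, an adjusted p of 0.957 by limma and an exact permutation p of 0.0397 (two-sided, n = 5 per genotype). Jun itself leaned the other way, with 10.72, 10.68, 10.94, 10.73 and 10.56 in Ts65Dn mice and 10.74, 10.53, 10.68, 10.54 and 10.62 in controls. Only Ts65Dn 3 was above every control (difference 0.10 ± 0.07, adjusted p = 1.00). The more steadily expressed members Jund (-0.02 ± 0.08) and Fosl2 (0.02 ± 0.07), and the stress-inducible partner Atf3 (-0.0046 ± 0.07), were near 0. Over the 7 genes the mean was 8.17 ± 0.06 in Ts65Dn mice and 8.22 ± 0.12 in controls (SD, n = 5 each).

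The EGR genes encode zinc finger factors that are induced by synaptic plasticity, and all 4 had negative differences. Their mean was 8.39, 8.51, 8.51, 8.28 and 8.30 in Ts65Dn 1 to 5, against 8.87, 8.79, 8.59, 8.51 and 8.25 in control 1 to 5. Controls 1 to 3 were above all Ts65Dn mice, and control 5 was below all of them. Egr4 had 7.85, 7.90, 7.99, 7.81 and 7.94 in Ts65Dn mice and 8.29, 8.33, 8.01, 8.14 and 7.94 in controls. Of the controls 4 stood above every Ts65Dn mouse, control 3 only just, and control 5 fell among them. The Egr4 difference was -0.24 ± 0.07 (log2, SE; fold 0.845, 95% interval 0.754 to 0.946, adjusted p = 0.876, exact permutation p = 0.0238, n = 5 per genotype). Egr2, which also drives myelination in Schwann cells, had 6.53, 6.80, 6.70, 6.50 and 6.28 in Ts65Dn mice and 7.41, 7.16, 7.01, 6.62 and 6.26 in controls. The control range of 1.15 was larger than the difference of -0.33 ± 0.19 (adjusted p = 1.00). Egr1 (Zif268), needed to keep long-term potentiation, had 9.72, 9.94, 9.76, 9.52 and 9.60 in Ts65Dn mice and 10.20, 10.19, 9.92, 9.83 and 9.54 in controls. Controls 1 and 2 stood above the Ts65Dn mice and the other 3 lay among them (difference -0.23 ± 0.12, adjusted p = 1.00). Egr3, known also for its need in muscle spindle development, was at -0.0088 ± 0.07, apart from the other 3.

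The NR4A genes encode orphan nuclear receptors that follow CREB activation. Nr4a1 (Nur77) had 9.61, 9.52, 9.00, 9.24 and 9.17 in Ts65Dn mice, against 9.92, 10.03, 9.68, 9.54 and 9.10 in controls. Controls 1 to 3 were above every Ts65Dn mouse, while controls 4 and 5 were not (difference -0.35 ± 0.17, log2, SE, adjusted p = 1.00). Nr4a2 (Nurr1), also a factor of dopamine neurons, had 10.52, 10.49, 10.51, 10.22 and 10.45 in Ts65Dn mice and 10.78, 10.52, 10.53, 10.47 and 10.22 in controls. Both genotypes had 1 mouse at 10.22, and the difference was -0.07 ± 0.09 (adjusted p = 1.00). Nr4a3 (Nor1) had 10.15, 10.20, 10.24, 10.01 and 10.13 in Ts65Dn mice and 10.13, 10.12, 10.17, 10.08 and 9.91 in controls. Its values overlapped and the difference was 0.07 ± 0.06 (adjusted p = 1.00), the only positive one of the 3 receptors.

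Npas4, a neuron-specific factor that responds to calcium entry and sets inhibitory synapse number, had the lowest difference of the 36 genes and the widest spread. Its log2 signals were 7.01, 7.57, 7.77, 7.78 and 6.98 in Ts65Dn 1 to 5, against 8.67, 8.51, 8.12, 7.68 and 6.94 in control 1 to 5. Controls 1 to 3 were above all Ts65Dn mice, control 4 was among them and control 5 was the lowest of the 10 mice. The difference of -0.56 ± 0.31 (log2, SE; fold 0.679, 95% interval 0.427 to 1.08) had an adjusted p of 1.00 by limma and an exact permutation p of 0.167 (n = 5 per genotype). It was -0.82 ± 0.23 without control 5, still with an adjusted p of 0.717, and -0.39 without control 1. The other 7 transcription regulators differed less, between -0.10 and 0.03. They were the clock repressor Per1 (-0.10 ± 0.12), the Krüppel-like factors Klf4 (-0.10 ± 0.09), Klf10 (-0.09 ± 0.09) and Klf2 (-0.08 ± 0.05), the cysteine- and serine-rich nuclear protein Csrnp1 (-0.08 ± 0.06), and the immediate early response genes Ier2 (0.02 ± 0.04) and Ier5 (0.03 ± 0.05). Per1 had its highest signal in mouse 1 of both genotypes, with 9.35, 9.15, 8.79, 9.03 and 8.82 in Ts65Dn mice and 9.43, 9.23, 9.11, 8.99 and 8.88 in controls. Its range was 0.56 in Ts65Dn mice and 0.55 in controls, without the wider control spread of Npas4. Ier2 was the dimmest of the 36 transcript clusters, with a mean log2 signal of 5.83, and differences of dim genes are understated by RMA.

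**Figure D3:**
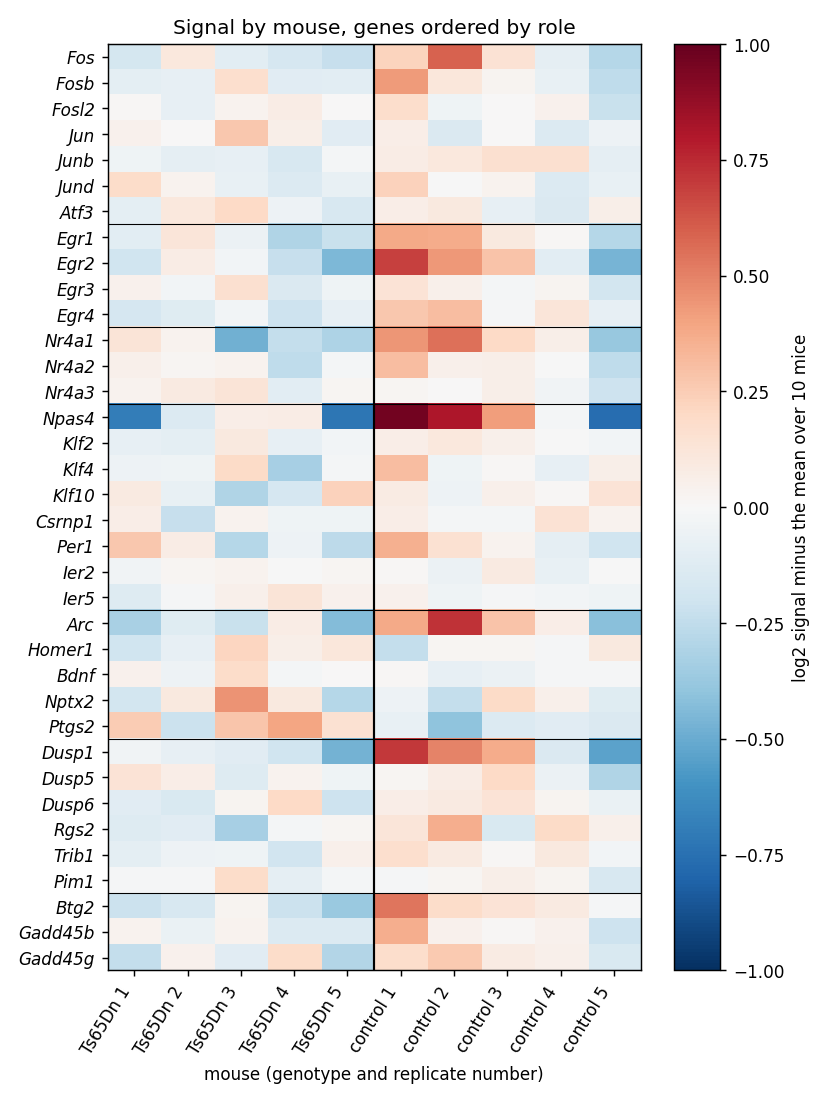
Log2 signal minus the mean over the 10 mice, as colour (blue below and red above, scale from -1 to 1), for the 36 genes (vertical axis, by role) in each mouse (horizontal axis, Ts65Dn left of the line and controls right of it). Red cells gather in controls 1 and 2 and blue cells in control 5, as for Npas4, Egr2, Arc and Dusp1, while Ptgs2 is red in 4 of 5 Ts65Dn mice.

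The synaptic and secreted effectors did not share a direction. Arc, a capsid-like protein that takes AMPA receptors off synapses, had 9.25, 9.45, 9.35, 9.65 and 9.14 in Ts65Dn 1 to 5, against 9.95, 10.30, 9.86, 9.64 and 9.16 in control 1 to 5. Controls 1 to 3 were above every Ts65Dn mouse and controls 4 and 5 lay among them. The Arc difference was -0.41 ± 0.18 (log2, SE; fold 0.750, 95% interval 0.573 to 0.983, adjusted p = 1.00, exact permutation p = 0.0794, n = 5 per genotype). Ptgs2 (cyclooxygenase 2, GRCm38.p6, chr1:150100031-150108234), the inducible enzyme of prostaglandin synthesis, ran the other way, with 10.68, 10.21, 10.70, 10.82 and 10.58 in Ts65Dn mice and 10.35, 10.02, 10.29, 10.31 and 10.28 in controls. All but 1 of the Ts65Dn mice were above every control, and Ts65Dn 2 and control 2 were the lowest of their genotypes. The Ptgs2 difference was 0.35 ± 0.11 (log2, SE; fold 1.27, 95% interval 1.08 to 1.49, adjusted p = 0.836, exact permutation p = 0.0397, n = 5 per genotype). Without Ts65Dn 2 it was 0.44 with an adjusted p of 0.0464, a call made for 0.201% of all genes in that fit, and the genotypes did not overlap, as in 0.963% of all genes higher in Ts65Dn mice. Ts65Dn 2 was the only Ts65Dn mouse that overlapped the controls in Ptgs2, so leaving it out removed the overlap by construction. The shares of all genes do not allow for that choice. With each mouse left out in turn, Ptgs2 was the only one of the 36 genes that reached the threshold. With the replicate number as a block in limma, Ptgs2 had an adjusted p of 0.047, a call made for 0.291% of all genes. The labels do not say whether the numbers pair the mice. The neurotrophin gene Bdnf had 7.44, 7.35, 7.58, 7.38 and 7.40 in Ts65Dn mice and 7.41, 7.32, 7.34, 7.39 and 7.39 in controls. Most of these mice were alike, with Ts65Dn 3 the highest (difference 0.06 ± 0.05, adjusted p = 1.00). The pentraxin gene Nptx2, whose product clusters AMPA receptors, and the scaffold gene Homer1 were at 0.07 ± 0.13 and 0.04 ± 0.08, in both cases with the highest signal in Ts65Dn 3. The Homer1 cluster was not assigned to its short activity-induced form (Homer1a) or to the long forms.

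**Figure D4:**
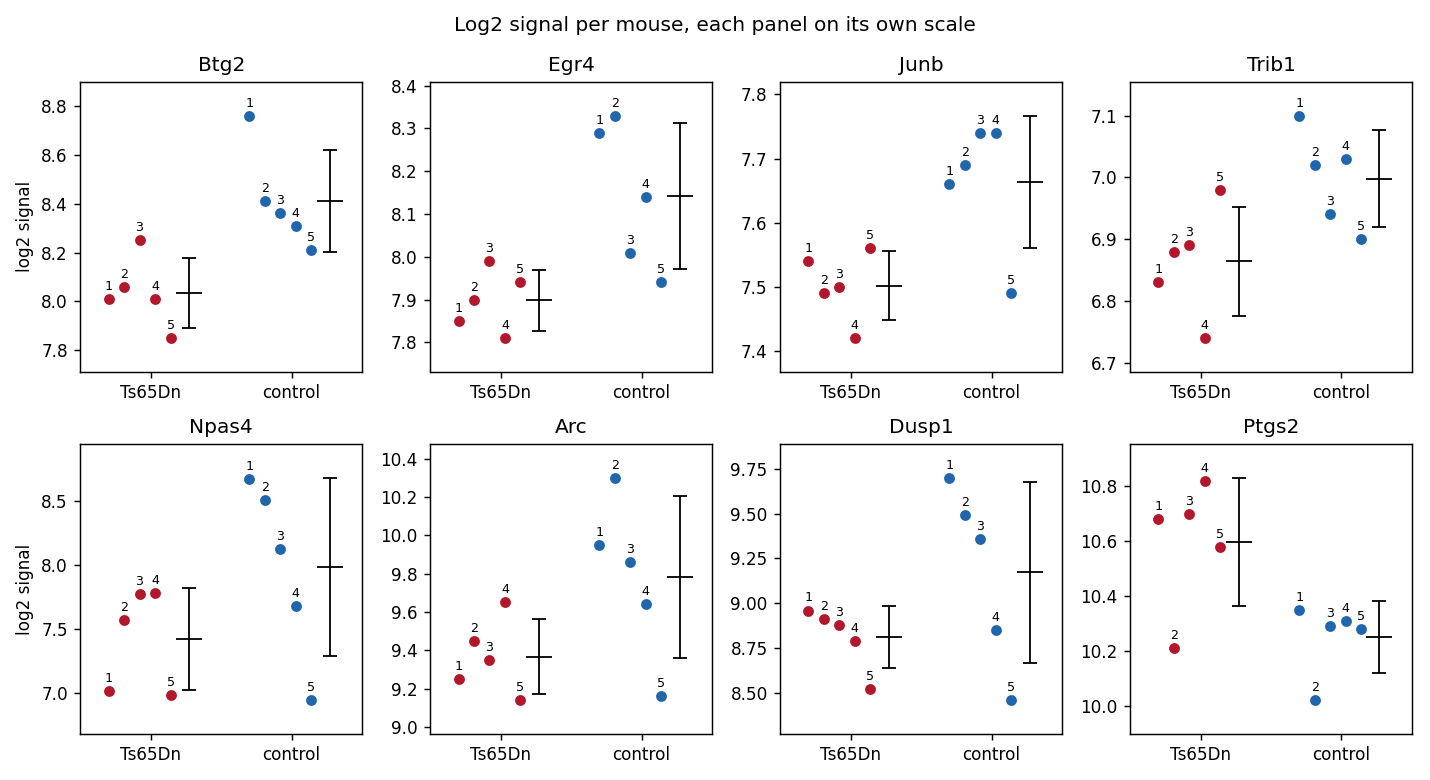
Log2 signal per mouse (vertical axis, each panel on its own scale) of 8 genes, Ts65Dn left and control right; points are mice with their replicate numbers, and bars are the mean with SD (n = 5). In the Npas4, Arc and Dusp1 panels the controls spread from above to the bottom of the Ts65Dn mice, and in the Ptgs2 panel 4 Ts65Dn mice lie above all controls.

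The signalling regulators include phosphatases that switch off MAP kinases after induction. Dusp1, the rapidly induced nuclear phosphatase of this family, had 8.96, 8.91, 8.88, 8.79 and 8.52 in Ts65Dn mice, against 9.70, 9.49, 9.36, 8.85 and 8.46 in controls. Controls 1 to 3 were above all Ts65Dn mice and control 5 below (difference -0.36 ± 0.20, log2, SE, adjusted p = 1.00). The ERK phosphatases Dusp6 (-0.10 ± 0.07) and Dusp5 (0.03 ± 0.09) differed less. Rgs2, which speeds up the shut-off of G protein signals, had 9.02, 9.04, 8.82, 9.13 and 9.17 in Ts65Dn mice and 9.27, 9.51, 9.00, 9.34 and 9.20 in controls. All controls but 1 were above every Ts65Dn mouse, here with control 3 as the exception (difference -0.23 ± 0.09, adjusted p = 1.00, exact permutation p = 0.0635, n = 5 per genotype). Trib1, a pseudokinase that directs proteins to degradation, had 6.83, 6.88, 6.89, 6.74 and 6.98 in Ts65Dn mice and 7.10, 7.02, 6.94, 7.03 and 6.90 in controls. Of the Ts65Dn mice 4 were below every control, Ts65Dn 5 being the exception. The Trib1 difference was -0.14 ± 0.05 (log2, SE; fold 0.909, 95% interval 0.839 to 0.984, adjusted p = 1.00, exact permutation p = 0.0397, n = 5 per genotype). The kinase gene Pim1 was at 0.02 ± 0.06.

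All 3 growth arrest genes had negative differences. Btg2, an antiproliferative cofactor of mRNA deadenylation, had the smallest p of the 36 genes. Its log2 signals were 8.01, 8.06, 8.25, 8.01 and 7.85 in Ts65Dn 1 to 5, against 8.76, 8.41, 8.36, 8.31 and 8.21 in control 1 to 5. Again 4 of the Ts65Dn mice were below every control, and Ts65Dn 3 overlapped control 5 alone. The Btg2 difference was -0.37 ± 0.10 (log2, SE; fold 0.771, 95% interval 0.664 to 0.897, adjusted p = 0.491 by limma, exact permutation p = 0.0159, n = 5 per genotype). The value was -0.43 without control 5 and -0.29 without control 1. Gadd45g, a stress sensor, had 7.29, 7.57, 7.41, 7.71 and 7.23 in Ts65Dn mice and 7.70, 7.79, 7.61, 7.58 and 7.37 in controls. Only control 2 was above every Ts65Dn mouse, and Ts65Dn 1 and 5 were below every control (difference -0.17 ± 0.10, adjusted p = 1.00). Gadd45b, which takes part in DNA demethylation in neurons, had 8.33, 8.23, 8.33, 8.16 and 8.16 in Ts65Dn mice and 8.66, 8.34, 8.31, 8.34 and 8.09 in controls. Control 1 stood alone at the top, the other mice lying close together (difference -0.11 ± 0.09, adjusted p = 1.00).

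The second question was how the genes varied among mice of 1 genotype. The SD was larger in controls than in Ts65Dn mice for 20 of the 36 genes (39.5% of all genes), and for 16 of them without control 5. The median SD of the 36 genes was 0.13 in Ts65Dn mice and 0.15 in controls, against 0.09 in Ts65Dn mice and 0.08 in controls over all genes. No gene of the set had a range above 1 among Ts65Dn mice (0.813% of all genes), and 4 had one among controls (0.567% of all genes), namely Npas4 with 1.74, Dusp1 with 1.24, Egr2 with 1.15 and Arc with 1.14. These 4 had ranges of 0.81, 0.45, 0.52 and 0.51 in Ts65Dn mice in the same order. The spread was not wider in controls for all genes: Ptgs2 had a range of 0.61 in Ts65Dn mice and 0.33 in controls, and Nptx2 one of 0.73 in Ts65Dn mice and 0.42 in controls.

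**Figure D5:**
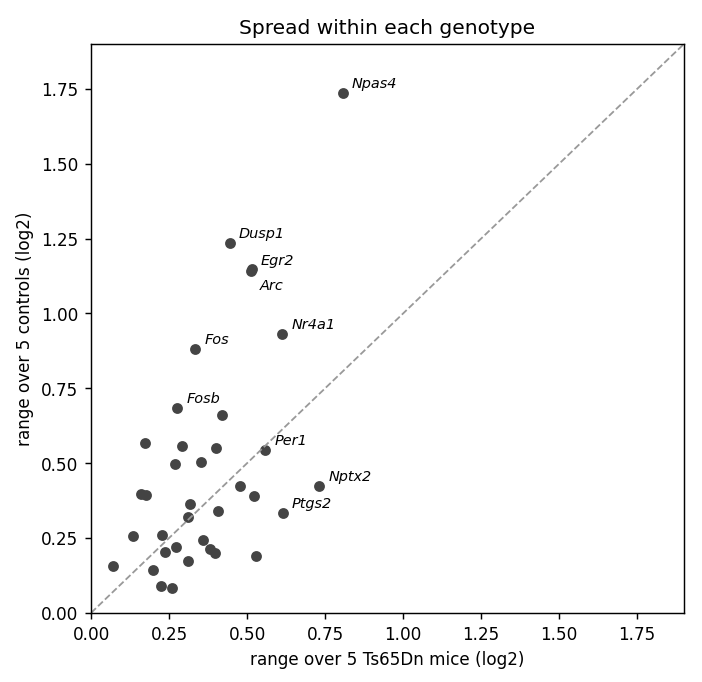
Range of the log2 signal over 5 Ts65Dn mice (horizontal axis) and over 5 controls (vertical axis), 1 point per gene; the dashed line marks equal ranges. Npas4, Dusp1, Egr2 and Arc lie above 1 on the control axis, and no gene lies above 1 on the Ts65Dn axis.

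Within the controls the same mice were high or low for many genes. Control 5 was the lowest control for 23 of the 36 genes (29.2% of all genes) and control 1 the highest for 18 (27.8%). Control 1 was above control 5 in 34 genes (57.3% of all genes), the exceptions being Homer1 and Klf10. In 7 genes the control values stood in descending order of the replicate number (1.85% of all genes), namely Fosb, Egr1, Egr2, Npas4, Per1, Dusp1 and Btg2. Among Ts65Dn mice 1 gene, Dusp1, did so (1.14% of all genes), Ts65Dn 5 was lowest for 12 genes (20.9%), and Ts65Dn 3 was highest for 14 (28.4%). The comparison thus depended on the control it was made with. The mean of the 5 Ts65Dn mice was below control 1 in 30 of the 36 genes, below control 2 in 27, below control 3 in 27, below control 4 in 23 and below control 5 in 10. The same counts were not made over all genes, of which 57.3% had control 1 above control 5, so this order is not shown to be particular to the 36. Without control 5, 14 of the 36 genes were lower in Ts65Dn mice at an unadjusted p under 0.05 (1.95% of all genes). Btg2, Egr4 and Junb then had no overlap between genotypes (0.747% of all genes). The smallest adjusted p among the 14 genes was 0.115, for Junb. Control 5 was singled out by its values in these same genes, and leaving it out raised the control mean in the 23 where it was lowest. The shares of all genes do not allow for that choice. Without control 1, 4 of the 36 genes were lower at that unadjusted p (1.56% of all genes).

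Marker genes of neighbouring tissue and cell types were set beside these values. All 13 genes of the choroid plexus list had positive differences, none of them at an unadjusted p under 0.05 in limma. The list mean was 7.65 ± 1.1 in Ts65Dn mice and 7.39 ± 0.95 in controls (SD, n = 5 each). This list had mean log2 signals per mouse of 6.51 to 9.05 in Ts65Dn mice and 6.55 to 8.81 in controls, highest in Ts65Dn 2 and control 5. Its defining gene Ttr was at 9.80, 13.61, 8.93, 13.38 and 12.47 in Ts65Dn mice and 12.05, 13.14, 9.66, 9.56 and 13.51 in controls, so that the control with the lowest immediate early signals also had the highest Ttr signal, while controls 3 and 4, with the lowest, were below controls 1 and 2 in the mean over the 36 genes. Endothelial genes were likewise highest in control 5 among controls (8.96, against 8.68 to 8.81 in the other 4). The mean of a neuron list was at 11.93 to 11.95 in Ts65Dn mice and 11.90 to 11.96 in controls. That list mixes general neuronal genes with the subtype genes Gad1, Gad2 and Slc17a7. Of 6 measured CA1 pyramidal genes 5 had negative differences (52.4% of all genes did). Wfs1 was at -0.35 ± 0.07 (adjusted p = 0.0925), Man1a at -0.19 ± 0.07 and Fibcd1 at -0.14 ± 0.10. Near 0 were Pou3f1 (-0.02 ± 0.07), Dcn (-0.01 ± 0.24) and Mpped1 (0.01 ± 0.09). The list mean was 10.04 ± 0.07 in Ts65Dn mice and 10.16 ± 0.10 in controls (SD, n = 5 each). The part of tissue composition in the values of the 36 genes was not tested.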

How the data were processed

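Arrays had been summarised by the authors with RMA, and their deposited table holds log2 signals. Tools and build in the submitters' processing notes are RMA, limma and mm10, with no version. The 36 genes, the related lists and the motifs were chosen with earlier results of these data known. Of 35556 transcript clusters, 23410 had at least 1 gene symbol in the platform annotation and were tested. A gene with several was represented by the brightest, and gene coordinates and promoters are those of RefSeq for GRCm38.p6. The test was a limma model (version 3.58.1, R 4.3.3; lmFit, eBayes) of genotype alone, Benjamini-Hochberg adjustment over the 23410 and a two-sided threshold of 0.05. Shares of all genes refer to 19938 genes with 1 transcript cluster each. Exact permutation tests over 5 against 5 mice, not adjusted for the number of genes, cannot go below p = 0.00794. Values per mouse were given for the 4 genes with the smallest p in each direction, for Fos, Fosb, Arc, Npas4 and Ptgs2, and for some further genes chosen after their values were seen, and 2 genes with the smallest p were named per related list. The rank method was written anew and need not match the study's own program. Other settings were the transcript clusters tested, a filter on dim ones, normalization, variance model, the replicate number as a block and leaving out each mouse. On simulated data with 200 changed transcript clusters, limma called 162, with 4.32% false, and recovered 91% of those changed by 0.6 and 64% of those changed by 0.3. The simulated noise was independent between transcript clusters, and the changed ones were picked at random. The median control SD was 0.15 for the 36 genes and 0.08 over all genes, so these rates need not hold for the 36. The number of mice limits the precision.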

Additional observations from a re-analysis of the deposited data

Results flagged for a closer look

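In 5 of 106 groups of 5 mice, 1 mouse lay so far from the other 4 that its gap exceeded the 95% critical value of Dixon's test (0.71 of the range), and chance alone gives about 1 such group in 20. For the 36 genes this held in 3 of 72 groups. Fosb was at 7.67 in Ts65Dn 3, against 7.39 to 7.42 in the other Ts65Dn mice. Nr4a2 was at 10.22 in Ts65Dn 4, against 10.45 to 10.52 in the others. Ptgs2 was at 10.02 in control 2, against 10.28 to 10.35 in the other controls, and its difference was 0.29 without that mouse. In the lists of related genes, the mean of 15 glucocorticoid targets was 9.16 in Ts65Dn 4, against 8.40 to 8.55 in the other Ts65Dn mice. Its member Lcn2 had a log2 signal of 10.27 there, against 5.73 to 5.97 in the other Ts65Dn mice and 5.67 to 6.58 in controls. The mean of 8 CA3 pyramidal cell genes was 9.13 in Ts65Dn 2, against 9.28 to 9.32 in the others.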

How the results depend on the processing

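With 5 mice per genotype, 683 values of single genes were recomputed under other settings of the processing or with 1 mouse left out, and 655 kept their direction and their side of the threshold. Of the 36 genes 27 never reversed, and the 9 that did had differences between -0.07 and 0.07. Atf3 was 0.0061 after a second quantile normalization and 0.0015 with array weights, and with weights Jund was 0.015, Homer1 -0.0076 and Pim1 -0.00029. Leaving out 1 mouse gave ranges of -0.054 to 0.036 for Atf3, -0.073 to 0.030 for Jund, -0.055 to 0.028 for Egr3, -0.14 to 0.0017 for Nr4a2, -0.034 to 0.066 for Fosl2, -0.046 to 0.078 for Dusp5, -0.013 to 0.095 for Homer1, -0.034 to 0.15 for Nptx2 and -0.022 to 0.046 for Pim1. Ptgs2 ranged from 0.29 to 0.44. Genes called at an adjusted p of 0.05 numbered 0 to 1 higher (Ptgs2, without Ts65Dn 2) and 0 lower throughout, and at an adjusted p of 0.1 they were 0 and 0. At an unadjusted p under 0.05 they numbered 1 to 2 higher (Jun also, without Ts65Dn 5) and 4 to 14 lower, and without overlap 0 to 1 higher and 0 to 3 lower. The count with a larger spread in controls ranged from 16 to 24. The rank method called 1 higher and 14 lower. Ier2 fell out with a filter at a mean log2 signal of 6. With the replicate number as a block, Ptgs2 had an adjusted p of 0.047 (1 gene called, 0.291% of all genes) and 12 genes were lower at an unadjusted p under 0.05 (2.61% of all genes). Whether the numbers pair the mice is not shown: deviations of same-numbered mice from their genotype means correlated at 0.51, 0.27, 0.32, 0.03 and 0.46 over genes. Ts65Dn 1, 2, 3 and 5 correlated best with the control of their own number, but Ts65Dn 4 correlated best with control 2 (0.34). The cause of these shifts was not tested.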

Other observations

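Other genes of the activity response had medians nearer to 0 than the 36 genes. Of 46 further rapidly induced genes, 28 had a negative difference (52.4% of all genes did), and the median was -0.02. At an unadjusted p under 0.05 in limma 1 was higher and 2 were lower, against 1.76% and 1.56% of all genes. The MAP kinase phosphatase gene Dusp14 was at 0.13 ± 0.04 (log2, SE), with 10.32 to 10.46 in Ts65Dn mice and 10.19 to 10.32 in controls, and the NF-κB inhibitor gene Nfkbia at -0.22 ± 0.09, in which Ts65Dn 4, at 8.99, was the only Ts65Dn mouse above 8.61, against 8.75 to 9.05 in controls. Of 27 late response genes 18 had a positive and 9 a negative difference (median 0.01). The tissue plasminogen activator gene Plat was at 0.19 ± 0.08 and the neurofilament gene Nefm at 0.13 ± 0.06. Of 33 genes of the signalling that induces immediate early genes, none had an unadjusted p under 0.05 in limma, beside the same small shares of all genes. Their median was 0.01, with the kinase gene Rps6ka3 at 0.15 ± 0.07 and the coactivator gene Ep300 at -0.09 ± 0.04. The 15 clock genes other than Per1 had a median of -0.02, with Bhlhe41 at 0.15 ± 0.05 and Rorb at -0.10 ± 0.05. The 15 glucocorticoid targets also had a median of -0.02, with Arrdc2 at 0.12 ± 0.04 and Nfkbia at -0.22 ± 0.09. Nfkbia and some other genes belong to more than 1 of the lists. None of the genes of these 5 lists passed an adjusted p of 0.05, a call that 0.276% of all genes made in the higher and 0.00502% in the lower direction.

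The descending order of the controls was also found in genes of other kinds. In 37 genes, listed after their values were seen, the controls descended with the replicate number over a range above 0.5, and 7 of them belonged to the 36 genes (0.186% of all genes met this rule). The rule requires a gap above 0.5 between control 1 and control 5, whereas the Ts65Dn values had no part in that choice. The gaps of the genotypes below are therefore not on equal terms. Among the 30 other genes Ts65Dn 5 was the lowest Ts65Dn mouse in 27, and the median gap between mouse 1 and mouse 5 was 0.57 in Ts65Dn mice and 0.63 in controls. The peptide genes Sst and Pcsk1n are examples: Sst had 12.20 in Ts65Dn 1 and 11.33 in Ts65Dn 5, against 12.28 in control 1 and 11.36 in control 5, and Pcsk1n had 12.34 in Ts65Dn 1 and 11.38 in Ts65Dn 5, against 12.38 in control 1 and 11.38 in control 5. Among the 7 immediate early genes Ts65Dn 5 was lowest in 4, and the median gap was 0.16 in Ts65Dn mice and 0.68 in controls. The genotypes differed by -0.56 to -0.10 in these 7 genes (median -0.33) and by -0.10 to 0.41 in the 30 others (median 0.01). The difference between the 2 sets of genes was not tested, and neither was what the replicate numbers stand for.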
